A study of Homo sapiens with 6 samples.

Results

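The genes described here encode proteins that restrain mTORC1, the kinase complex that couples nutrients and growth factors to protein synthesis and growth. They are DDIT4, DDIT4L, SESN1, SESN2, SESN3, CASTOR1, CASTOR2, DEPTOR, TSC1 and TSC2, chosen by function, and make up 10 of the 60683 rows of the count table. RNA was sequenced from 143B cells, a human osteosarcoma line, in 3 libraries from cells given TPBC-PEG for 24 h and 3 from cells given PBS for 24 h. The sample titles put TPBC-PEG at 3 µM and the treatment protocol at 300 µM, so its dose is not settled, and the labels do not say whether these cells were illuminated, although the series concerns photodynamic therapy. Nothing in the labels says that the libraries of a group came from separate cultures, so the p-values below measure only the spread between these libraries, which may be technical.

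The brakes act at several points of one pathway. TSC1 and TSC2 form a complex whose TSC2 part switches off RHEB, the small GTPase that activates mTORC1 on the lysosome. DDIT4, also named REDD1, acts through that complex under stress, and DDIT4L is its paralog. Sestrins bind GATOR2 and so hold back the Rag GTPases that bring mTORC1 to the lysosome when amino acids are plentiful, SESN2 being a leucine sensor. CASTOR1 does the same as an arginine sensor and can pair with CASTOR2, while DEPTOR binds the mTOR kinase itself. DDIT4 and SESN2 are known targets of the stress factor ATF4 and SESN3 of FOXO factors.

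Of the 10 brakes, 4 were called higher in TPBC-PEG cells and 0 lower, where 33.2% of all tested genes were called, 16.2% as higher. DDIT4 was 4.40-fold and SESN2 3.17-fold as high in TPBC-PEG cells as in PBS cells, and SESN3 1.57-fold. TSC1 passed the same test at 1.13-fold, although its values overlapped between the groups and its call was lost under 7 of 16 alternatives. SESN1, CASTOR2, DEPTOR and TSC2 did not pass, and DDIT4L and CASTOR1 had too few reads to be tested.

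The upstream sequences of DDIT4 and SESN2 are shown because these were the brakes with the largest rises, and a short stretch before a RefSeq start of TSC2 because it holds the one match to the core of the ATF4 and C/EBP element. Sequences are from RefSeq on GRCh38.p14, whose table matched 8 of the 10 genes. The DDIT4 stretch is the 250 bases before its RefSeq start, chr10:72273674-72273923 on the plus strand. That of SESN2 is chr1:28259268-28259517 on the plus strand. The TSC2 stretch of 30 bases is chr16:2047864-2047893 on the plus strand. In DDIT4 and SESN2 capitals mark ATTGG, the reverse complement of CCAAT, and, in DDIT4, ACGTG. In TSC2 they mark the match to TGATGNAA.
DDIT4: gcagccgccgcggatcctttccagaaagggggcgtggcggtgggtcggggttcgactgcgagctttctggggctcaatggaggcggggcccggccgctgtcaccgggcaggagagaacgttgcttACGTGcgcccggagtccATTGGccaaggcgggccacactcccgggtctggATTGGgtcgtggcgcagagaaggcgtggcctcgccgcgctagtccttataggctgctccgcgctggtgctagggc
SESN2: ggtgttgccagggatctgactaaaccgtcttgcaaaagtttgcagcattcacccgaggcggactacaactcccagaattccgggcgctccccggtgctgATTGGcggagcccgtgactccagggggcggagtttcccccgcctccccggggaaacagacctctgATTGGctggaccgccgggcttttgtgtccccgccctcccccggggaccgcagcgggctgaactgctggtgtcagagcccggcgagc
TSC2: gccccgtcacgTGATGCAAggatcgccggc

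Motifs were searched on both strands of the 250 bases before each start. One was the core TGATGNAA. Another was ACGTG, the core of hypoxia response elements and a part of the E-box CACGTG. The others were the common promoter box CCAAT and the FOXO motif GTAAACA. DDIT4 and SESN2 each held CCAAT in the reverse direction 2 times. In DDIT4 these matches began 108 and 75 bases before the start, and in SESN2 151 and 86 bases before it. DDIT4 also held ACGTG, 125 bases before its start. Of the 3 starts listed for SESN1, 2 had CCAAT, as did the window of CASTOR1, while those of SESN3, TSC1 and DDIT4L held no match to any of the motifs. TGATGNAA had no match in the windows of DDIT4, SESN1, SESN2 or CASTOR1, and GTAAACA had none in any member's window. The match in TSC2 began 110 bases before the first of its starts in the table and overlapped a CACGTG. RefSeq and GENCODE place that start differently, and the TSC2 stretch lies inside the gene as GENCODE draws it. The RefSeq and GENCODE starts of DDIT4 and SESN2 are a few bases apart. Across all 35116 RefSeq windows of this length, 32.0% held CCAAT, 18.5% ACGTG, 3.14% TGATGNAA and 2.98% GTAAACA. The matches describe letters only, and binding was not measured.

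Levels are given as CPM, counts scaled to library size with TMM factors, and the counts were tested over all 15846 genes with enough reads by edgeR's quasi-likelihood test, with Benjamini-Hochberg adjustment and a threshold of 0.05. The libraries held 15726323 to 20486584 counts. At this threshold 33.2% of all tested genes were called, with 16.9% lower in TPBC-PEG cells. With scaling by library size alone the calls were 3213 higher and 1971 lower, against 2574 and 2682 with TMM. Of the 10 brakes 8 were tested, 4 were called higher and 0 lower, and 0 were lower at an unadjusted p under 0.05 or by DESeq2 or limma-voom. DESeq2 called 3 of them higher, without TSC1. The median log2 fold change was 0.21 over the tested brakes and 0.011 over all tested genes. In bulk RNA, fewer cells expressing a gene and less of its RNA per cell cannot be told apart. For 3 brakes every TPBC-PEG value lay above every PBS value, as it did for 22.1% of all tested genes.

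Of the markers of mesenchymal and bone cells, VIM ran from 2290 to 2591 CPM over the 6 libraries, and RUNX2 from 15.9 to 27.2 CPM. ALPL, another of these markers, was low, at 3.91 to 5.68 CPM, and its values overlapped between the groups. RUNX2 was higher in every TPBC-PEG library than in any PBS library, and COL1A1, SPARC, VIM and CD44 were lower, and the part of this in the results was not tested. PTPRC, a blood cell marker, had 3 counts in all and PECAM1, an endothelial one, 7 counts. ALB, a liver marker, was at 0.482 to 0.874 CPM. EPCAM, usually an epithelial marker, was present at 15.1 to 17.7 CPM in every library, with overlapping values in both groups.

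**Figure D1:**
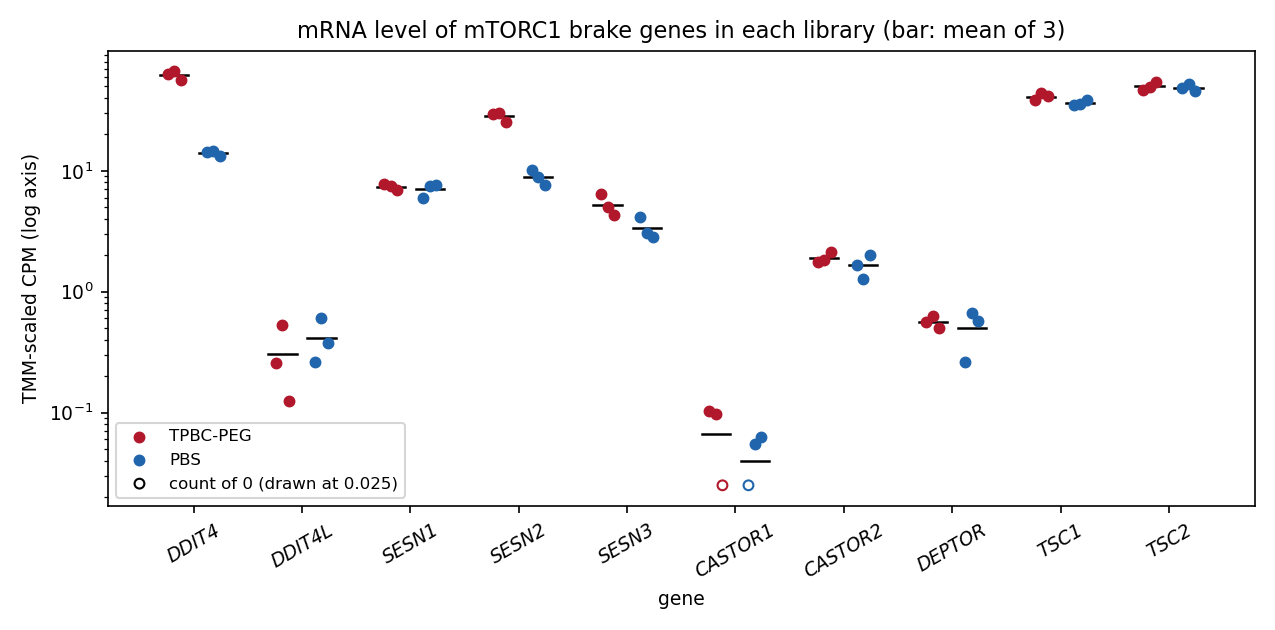
TMM-scaled CPM on a log axis for each of the 10 genes, with 1 point per library, TPBC-PEG (red) left of PBS (blue), and a bar at the mean of 3. DDIT4, SESN2 and SESN3 have all TPBC-PEG points above all PBS points, and DDIT4L, CASTOR1 and DEPTOR lie below 1 CPM.

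DDIT4 (ENSG00000168209, chromosome 10, 72273920 to 72276036, plus strand, GRCh38) is the brake induced by hypoxia, glucocorticoids and endoplasmic reticulum stress. It had 62.6, 66.3 and 56.1 CPM in TPBC-PEG cells, against 14.3, 14.5 and 13.3 CPM in PBS cells. The lowest treated library was thus well above the highest control. The log2 fold change was 2.14 ± 0.074 (SE), with a 95% interval of 1.99 to 2.28 (edgeR quasi-likelihood, Benjamini-Hochberg adjusted p = 4.58e-28). Only 0.114% of the tested genes had a larger rise, and DDIT4 ranked 19 by size and 2 by p-value. The exons of DDIT4-AS1, an antisense transcript, lie wholly within those of DDIT4 and cover 41.2% of them. That transcript had 3 counts in all 6 libraries together, beside 3489 counts of DDIT4 in TPBC-PEG cells and 747 counts in PBS cells. Whether the counting used strand is not given in the sources used here.

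Its paralog DDIT4L (ENSG00000145358, chromosome 4, 100185870 to 100190782) was near the limit of detection. It had 5, 11 and 2 counts in TPBC-PEG libraries and 5, 11 and 6 counts in PBS libraries. The values overlapped, and the gene did not pass the filter on low counts. When every gene with a count was tested, its log2 fold change was -0.40 (edgeR quasi-likelihood, Benjamini-Hochberg adjusted p = 0.725). Per length of exon, DDIT4L made up 0.327% ± 0.201 of the summed mRNA of the pair in TPBC-PEG cells and 1.99% ± 0.785 in PBS cells (mean ± SD, n = 3 each). The REDD mRNA of these cells was thus almost all DDIT4 in both groups.

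SESN2 (ENSG00000130766, chromosome 1, 28259527 to 28282491, plus strand) showed the second largest rise among the brakes. It had 29.4, 29.9 and 25.1 CPM in TPBC-PEG cells, against 10.1, 8.92 and 7.57 CPM in PBS cells. The groups were far apart, and no other annotated gene shares exons with SESN2. SESN2 had a log2 fold change of 1.66 ± 0.098 (SE), with a 95% interval of 1.47 to 1.86 (edgeR quasi-likelihood, Benjamini-Hochberg adjusted p = 5.12e-19). Of all tested genes, 0.341% rose by more.

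SESN3 (ENSG00000149212, chromosome 11, 95165513 to 95232541, minus strand) rose by less and from fewer reads. It had 6.47, 5.01 and 4.26 CPM in TPBC-PEG cells, against 4.12, 3.05 and 2.84 CPM in PBS cells. The groups did not overlap, but the lowest TPBC-PEG value was only slightly above the highest PBS value. This gave a log2 fold change of 0.65 ± 0.18 (SE; edgeR quasi-likelihood, Benjamini-Hochberg adjusted p = 0.00414). Without TPBC-PEG replicate 1, the library with its highest value, the log2 fold change was 0.47 and the call was lost (edgeR, BH-adjusted p = 0.0841). The adjusted p ran from 0.00176 to 0.0382 under the other 15 alternatives.

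SESN1 (ENSG00000080546, chromosome 6, 108986437 to 109094819, minus strand) did not pass the test. It had 7.71, 7.42 and 6.96 CPM in TPBC-PEG cells, against 6.00, 7.54 and 7.57 CPM in PBS cells. The values were interleaved, with PBS replicate 1 the lowest of all. The log2 fold change was 0.074, with a 95% interval of -0.20 to 0.35 (edgeR quasi-likelihood, Benjamini-Hochberg adjusted p = 0.725). That interval ends below the interval of SESN2.

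The 3 sestrins contributed to the family's mRNA in different proportions. Their summed level, per kilobase of annotated exon, was 10.1 ± 0.920 CPM per kilobase in TPBC-PEG cells and 4.25 ± 0.280 CPM per kilobase in PBS cells (mean ± SD, n = 3 each). SESN2 made up 80.1%, 81.8% and 80.5% of that sum in TPBC-PEG libraries, against 65.1%, 59.5% and 55.7% in PBS libraries. SESN1 made up 14.3% ± 0.699 in TPBC-PEG cells and 32.5% ± 5.80 in PBS cells, and SESN3 4.90% ± 0.740 and 7.39% ± 1.15 in the same order (mean ± SD, n = 3 each). None of these shares overlapped between the groups. The two-sided exact permutation p was 0.1 for each sestrin, the smallest that 3 against 3 can give, and 0.133 after Benjamini-Hochberg adjustment over 4 tests. SESN3 had a smaller share in TPBC-PEG cells although its own level was higher there. With the longest annotated transcript as the length, SESN2 made up 75.5% ± 1.04 in TPBC-PEG cells and 52.0% ± 5.29 in PBS cells (SD, n = 3 each).

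**Figure D2:**
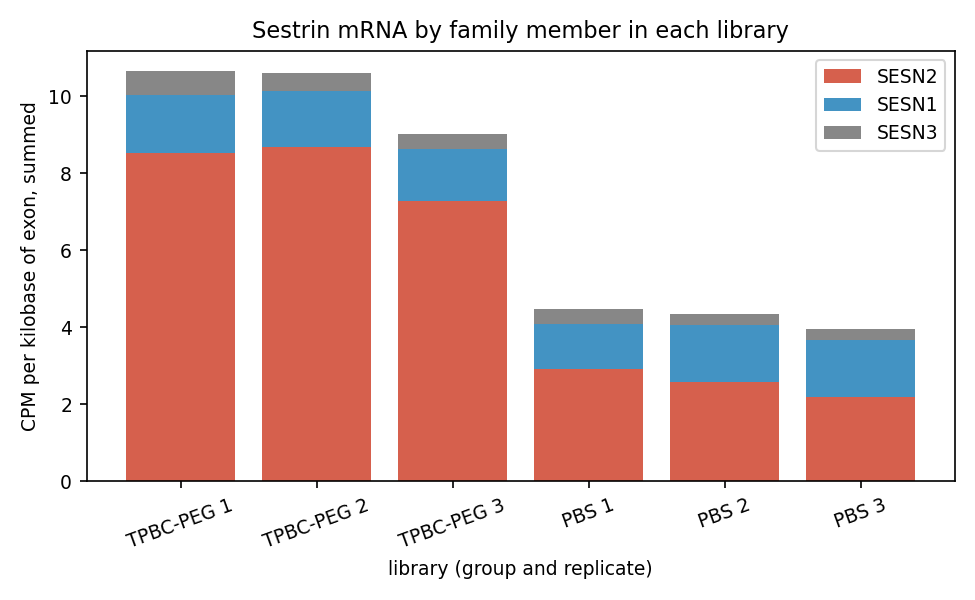
Stacked bars give the CPM per kilobase of exon of SESN2, SESN1 and SESN3 in each library, with the TPBC-PEG libraries left of the PBS libraries. The sums average 10.1 with TPBC-PEG and 4.25 with PBS, and the SESN2 part is the one that differs most.

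TSC1 (ENSG00000165699, chromosome 9, 132891348 to 132946874, minus strand) encodes hamartin, which stabilises TSC2. It had 38.3, 43.8 and 41.2 CPM in TPBC-PEG cells, against 35.2, 35.9 and 38.5 CPM in PBS cells. The lowest TPBC-PEG value was below the highest PBS value. For TSC1 the log2 fold change was 0.17 ± 0.066 (SE; edgeR quasi-likelihood, Benjamini-Hochberg adjusted p = 0.0351). Larger rises were seen in 27.6% of tested genes. The call was lost without TPBC-PEG replicate 2, TPBC-PEG replicate 3, PBS replicate 1 or PBS replicate 2 (edgeR, BH-adjusted p = 0.243, 0.073, 0.157 and 0.0961). It was also lost with DESeq2 (adjusted p = 0.144), without a filter (edgeR, 0.0619) and with the GC trend removed (edgeR, 0.0779).

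TSC2 (ENSG00000103197, chromosome 16, 2047465 to 2089487, plus strand) encodes tuberin, the part of the complex that acts on RHEB. It had 46.7, 49.6 and 54.7 CPM in TPBC-PEG cells, against 48.2, 51.7 and 45.4 CPM in PBS cells. The groups overlapped widely. The log2 fold change was 0.050, with a 95% interval of -0.075 to 0.17 (edgeR quasi-likelihood, Benjamini-Hochberg adjusted p = 0.591). TSC1 made up 47.7% ± 2.00 of the summed per-length mRNA of the pair in TPBC-PEG cells and 45.7% ± 2.61 in PBS cells (SD, n = 3 each; two-sided exact permutation p = 0.4, and 0.4 adjusted over the 4 tests). The difference was no larger than the spread between replicates. Those shares use all annotated exons as the length. Per longest annotated transcript, TSC1 made up 37.3% ± 1.87 with TPBC-PEG and 35.5% ± 2.42 with PBS (SD, n = 3 each).

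The CASTOR genes were weakly expressed. CASTOR2 (ENSG00000274070, chromosome 7, 74964818 to 75024798) had 1.75, 1.83 and 2.13 CPM in TPBC-PEG cells, against 1.67, 1.27 and 2.02 CPM in PBS cells. The values overlapped, and the log2 fold change was 0.20 with a 95% interval of -0.34 to 0.75 (edgeR quasi-likelihood, Benjamini-Hochberg adjusted p = 0.616). CASTOR1 (ENSG00000239282, chromosome 22, 30285117 to 30289627) had 2, 2 and 0 counts in TPBC-PEG libraries and 0, 1 and 1 counts in PBS libraries, which is too few for a comparison. Another annotated gene, ENSG00000248751, shares exons with CASTOR1 and TBC1D10A and covers 46.0% of the CASTOR1 exons on the same strand. It had 0 counts in every library, so how reads shared by the pair were counted is uncertain.

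DEPTOR (ENSG00000155792, chromosome 8, 119873717 to 120050913) passed the filter on low counts narrowly. It had 11, 13 and 8 counts in TPBC-PEG libraries and 5, 12 and 9 counts in PBS libraries. The log2 fold change was 0.21 with a 95% interval of -0.73 to 1.14 (edgeR quasi-likelihood, Benjamini-Hochberg adjusted p = 0.783). At this depth neither a 2.21-fold rise nor a fall to 0.604 of the PBS level lay outside the interval.

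**Figure D3:**
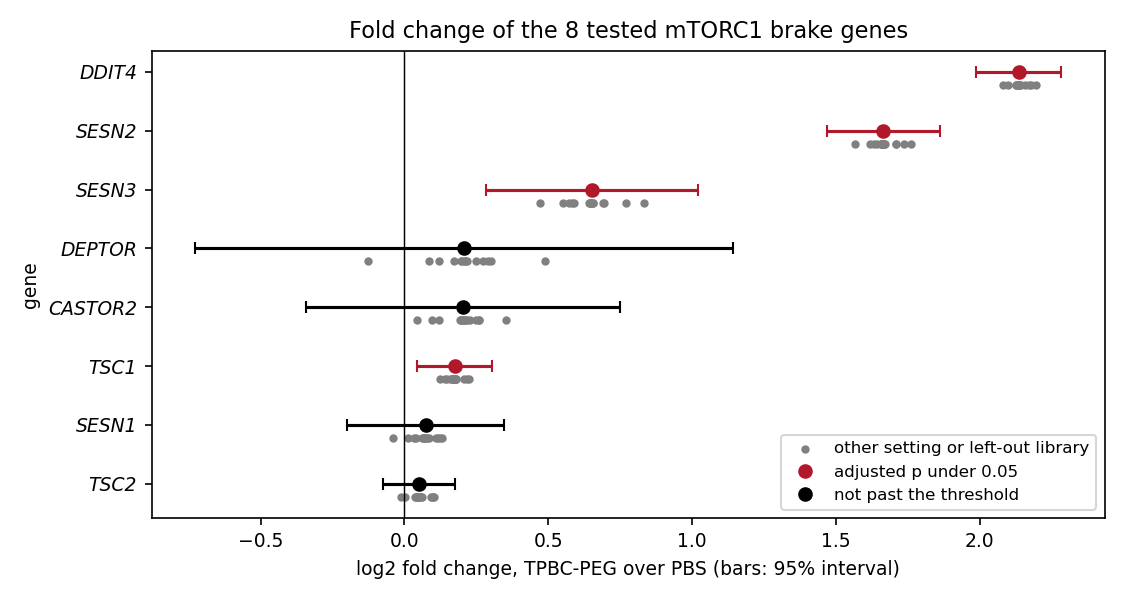
Log2 fold change of TPBC-PEG over PBS for the 8 tested genes, with 95% intervals, red where the adjusted p was under 0.05. Grey points are the same value under other settings or with 1 library left out. DDIT4 at 2.14 and SESN2 at 1.66 stand clear of 0 in every case, while points of SESN1, TSC2 and DEPTOR fall on both sides of it.

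Levels of different genes were compared per kilobase of the longest annotated transcript. In TPBC-PEG cells DDIT4 stood first at 35.3 ± 2.95 CPM per kilobase, followed by SESN2 at 8.15 ± 0.774, TSC2 at 7.93 ± 0.640, TSC1 at 4.72 ± 0.315, SESN1 at 2.10 ± 0.108 and CASTOR2 at 1.51 ± 0.161 (mean ± SD, n = 3 libraries). SESN3 at 0.549 ± 0.118, DEPTOR at 0.220 ± 0.0243, DDIT4L at 0.117 ± 0.0793 and CASTOR1 at 0.0409 ± 0.0355 CPM per kilobase came last. In PBS cells DDIT4 at 8.03 ± 0.369 and TSC2 at 7.63 ± 0.498 CPM per kilobase led with overlapping libraries, and TSC1 at 4.19 ± 0.205 was above SESN2 at 2.56 ± 0.362. On this length SESN2 stood above TSC1 in TPBC-PEG cells and below it in PBS cells, but with all annotated exons as the length it stood above TSC1 in both groups. The remaining order in PBS cells was SESN1 at 2.00 ± 0.256, CASTOR2 at 1.32 ± 0.296, SESN3 at 0.349 ± 0.072, DEPTOR at 0.194 ± 0.0821, DDIT4L at 0.160 ± 0.0681 and CASTOR1 at 0.0243 ± 0.0212 CPM per kilobase. In TPBC-PEG cells the libraries of SESN2 and TSC2, of DEPTOR and DDIT4L, and of DDIT4L and CASTOR1 overlapped, and in PBS cells also those of DEPTOR and DDIT4L. The length chosen matters for TSC2, whose annotated exons together are 19626 bases long and whose longest transcript is 6344 bases, and for TSC1, with 17600 and 8715 bases. With all exons as the length TSC2 was at 2.56 ± 0.207 CPM per kilobase in TPBC-PEG cells and 2.47 ± 0.161 in PBS cells, and TSC1 at 2.34 ± 0.156 and 2.07 ± 0.101 CPM per kilobase in the same order (SD, n = 3 each). DDIT4 then led without overlap in both groups, and the PBS libraries of SESN2 and TSC2 then overlapped.

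The rest of the mTORC1 pathway was described with 9 lists chosen by function, holding 88 genes. Beside their counts stand the shares over all tested genes, 16.2% called higher and 16.9% called lower. Every count of 0 given for a list was also 0 at an unadjusted p under 0.05, by DESeq2 and by limma-voom. Of 8 subunit genes of mTORC1 and mTORC2 1 rose and 2 fell, with a median log2 fold change of -0.042. The one that rose was RICTOR, the defining subunit of mTORC2, with a log2 fold change of 0.42 ± 0.048 (SE). MTOR was at 148.0 CPM with TPBC-PEG and 154.7 CPM with PBS and did not pass. MLST8 and AKT1S1 fell, at -0.18 and -0.17, calls that were lost with library size alone (edgeR, BH-adjusted p = 0.102 and 0.0906). Both calls were also lost without TPBC-PEG replicate 1 (edgeR, 0.133 for MLST8 and 0.0873 for AKT1S1) and without PBS replicate 2 (edgeR, 0.0553 and 0.0623 in the same order). That of MLST8 was lost as well without TPBC-PEG replicate 3 (edgeR, 0.0699), without PBS replicate 3 (edgeR, 0.0517) and with DESeq2 (adjusted p = 0.0647). With the GC trend removed neither was called, MLST8 being at -0.098 (edgeR, 0.264) and AKT1S1 at -0.12 (edgeR, 0.114). Of 3 genes next to the TSC complex, RHEBL1, a RHEB homologue, rose by 0.62 ± 0.17, from few reads, at 5.22 ± 0.665 CPM with TPBC-PEG and 3.39 ± 0.268 CPM with PBS (SD, n = 3 each). RHEB was at 0.079 and TBC1D7, the third subunit of the complex, at -0.10, and neither passed. With library size alone RHEB was called as well, at 0.12 (edgeR, adjusted p = 0.0461).

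Sestrins and CASTOR proteins act on the amino acid branch of the pathway. Of 14 genes of Rag GTPases, Ragulator and folliculin 4 rose and 0 fell, with a median log2 fold change of 0.11. Among all tested genes 16.2% were called higher and 16.9% lower. FNIP1, a partner of folliculin, was at 45.6 ± 1.19 CPM with TPBC-PEG and 30.6 ± 2.02 CPM with PBS, and SLC38A9, the lysosomal arginine sensor, at 35.6 ± 2.55 and 26.2 ± 1.29 CPM in the same order (SD, n = 3 each). RRAGC and RRAGD, a pair of Rag GTPase genes, were the other 2 that rose, at 0.30 and 0.40. The call of RRAGC, 22.9% of whose exons overlap another gene, was lost with DESeq2 (adjusted p = 0.105) and without TPBC-PEG replicate 1 or 3 or PBS replicate 1 or 2 (edgeR, 0.0885, 0.124, 0.0758 and 0.0678). The RRAGC call was also lost with the expression-level trend removed (edgeR, BH-adjusted p = 0.0525). Of 5 genes of GATOR2, the complex that sestrins bind, 1 rose, SEC13 at 0.24 ± 0.045 (SE), which also serves the COPII coat. Of 7 genes of GATOR1 and KICSTOR, the complexes that switch off the Rag GTPases, 0 rose and 1 fell, ITFG2 at -0.31, a call lost with DESeq2 (adjusted p = 0.0696), without TPBC-PEG replicate 2 (edgeR, 0.0967) and without PBS replicate 3 (edgeR, 0.217).

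Of 14 genes of AMPK, LKB1 and AKT signalling 4 rose and 3 fell, with a median of -0.027. For this list and the next, the shares over all tested genes were 16.2% higher and 16.9% lower. TRIB3, a pseudokinase that binds AKT, was at 76.5 ± 9.85 CPM with TPBC-PEG and 25.7 ± 2.20 CPM with PBS (SD, n = 3 each), a log2 fold change of 1.58 ± 0.085 (SE). PRKAB2, an AMPK subunit, rose by 0.43 ± 0.054, while AKT1 and PDPK1, the kinases of the growth factor branch, fell, at -0.27 and -0.23. Of 17 tested substrates and effectors of mTORC1 8 rose and 4 fell, with a median of 0.17. PDCD4, a translation inhibitor, and LPIN1, a lipid regulator, rose by 0.49 and 0.43. RPS6KB2, an S6 kinase, and EIF4E, the cap-binding factor, fell, at -0.35 and -0.33. RPS6KB1, which encodes the other S6 kinase of the list, was at 0.062 and did not pass. Phosphorylation, by which mTORC1 activity is read, was not measured.

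Of 8 genes listed as regulators of DDIT4 or sestrins 6 rose and 0 fell, with a median of 0.49, beside 16.2% called higher among all tested genes. DDIT3, which encodes CHOP, was at 21.7 ± 4.62 CPM with TPBC-PEG and 3.43 ± 0.213 CPM with PBS, and CEBPB at 79.1 ± 2.00 and 34.3 ± 8.08 CPM in the same order (SD, n = 3 each). ATF4 rose by 0.51 ± 0.037 (SE) and FOXO3 by 0.47 ± 0.061, while HIF1A at -0.015 did not pass. These are RNA levels, and the protein amount and activity of the factors were not measured. Beside SESN3, 9 of 12 FOXO targets rose and 1 fell, with a median of 0.35, led by CCNG2 at 1.36, GABARAPL1 at 1.16 and KLF2 at -1.10. TXNIP, an arrestin-like protein and not a transcription factor, is in both of these lists and its rise of 0.58 ± 0.098 (SE) is counted in each. Many of these genes have other regulators, and these lists were chosen with earlier results of the data known. Other annotated genes overlap 39.6% of the exon length of DDIT3, 29.5% of PDCD4, 23.7% of PDPK1, 18.7% of ITFG2, 15.3% of TBC1D7 and 11.8% of CEBPB.

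**Figure D4:**
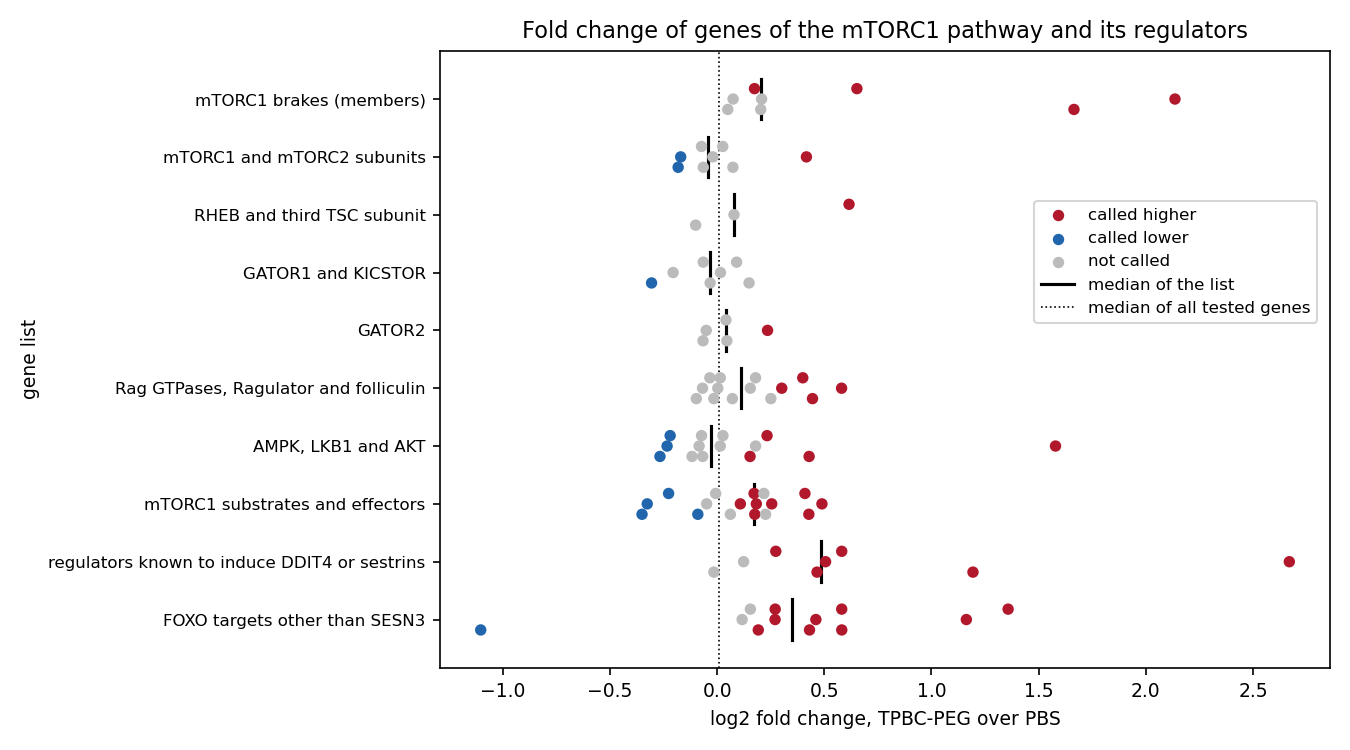
Each point is a tested gene, by its log2 fold change of TPBC-PEG over PBS, in rows for the brake genes and the 9 other lists, coloured by whether it was called at an adjusted p under 0.05. Black bars are list medians, such as 0.21 for the brakes and 0.49 for the regulators, and the dotted line is the median of all tested genes at 0.011.

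The genes most like DDIT4 and SESN2 in their values over the 6 libraries were found by the root mean square difference in log2 CPM, after subtracting each gene's PBS mean, among the 11160 genes that averaged 5 CPM or more. For DDIT4 these were SLC7A11, the cystine importer, at a distance of 0.0459, PTGS2 at 0.0743, HSPA5, the chaperone BiP, at 0.101, ERO1B at 0.181 and KLHL24 at 0.225 log2 units. For SESN2 they were IGFBP1 at 0.0704, the unnamed gene ENSG00000236453 at 0.122, BMF, a BH3-only cell death gene, at 0.137, RAB39B at 0.142 and HERPUD1 at 0.150 log2 units. DDIT4 and SLC7A11 lay 2.15 and 2.06 log2 units above their PBS means in TPBC-PEG replicate 1, 2.23 and 2.26 in replicate 2 and 1.99 and 2.01 in replicate 3. Both genes were lowest in TPBC-PEG replicate 3 among the treated libraries, as were SESN2 and SESN3, and that library also had the lowest total count. The part of depth in these values was not tested.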

How the data were processed

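The authors deposited raw read counts per Ensembl gene for the 6 libraries, 60683 rows in all. The submitters' processing notes name HISAT2 as aligner and GRCh38 as build. No source used here gives the counting program, annotation or strand setting. Symbols came from a gene name table, and coordinates, lengths and exon overlaps from GENCODE release 29 (GRCh38).

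The deposited counts were tested with edgeR 4.0.16 in R 4.3.3 (filterByExpr with minimum count 10 and minimum total 15, TMM, glmQLFit with robust estimation, glmQLFTest, group as the only term), which kept 15846 genes, with Benjamini-Hochberg adjustment over all of them. The standard error came from the F statistic, with a prior count of 2 for log2 CPM. Shares per length were compared over libraries by exact permutation with scipy 1.17.1. The script was tested on simulated data.

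The members and lists were chosen with earlier results of these data known. All 10 members were named, in each other list up to 2 called genes that rose and 2 that fell most among those averaging 1 CPM or more, and the 5 genes nearest in profile to the 2 most changed members. MTOR, RHEB, TBC1D7, RRAGC, RRAGD, RPS6KB1, ATF4, FOXO3, HIF1A and TXNIP were named for their roles after their values were seen. Other settings tried were other scalings and filters, DESeq2 1.42.0, limma-voom 3.58.1, a replicate block, leaving out each library, and, chosen after results were known, offsets removing a lowess trend (span 0.3) with expression level or GC content. Some pathway genes and a list of targets are not reported here.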

Additional observations from a re-analysis of the deposited data

How the results depend on the processing

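DDIT4 and SESN2 were called higher under all 16 alternatives, with log2 fold changes of 2.08 to 2.20 and 1.57 to 1.76. Between 3 and 4 members were called higher and 0 lower. SESN3 was lost without TPBC-PEG replicate 1 (leaving out each library gave 0.47 to 0.83). TSC1 was lost without a filter (0.17), with DESeq2 (0.16), with the GC trend removed (0.15) and without any of 4 single libraries (leave-one-out range 0.12 to 0.22). The sign turned for SESN1 and DEPTOR without PBS replicate 1 (ranges -0.041 to 0.13 and -0.13 to 0.49) and for TSC2 without TPBC-PEG replicate 3 (-0.012 to 0.10), none of which passed the test in any case. HIF1A, not called either, was at 0.028 with library size alone, 0.068 with the expression-level trend removed, -0.082 with the GC trend removed (edgeR, adjusted p = 0.0865) and -0.044 to 0.0062 with 1 library left out. The cause was not tested. Share differences of SESN2 were 18.5 to 23.5 percentage points. Over the other lists, 33 genes were higher and 11 lower, and 30 to 35 were higher under the alternatives. Lower calls numbered 7 with library size alone and 7 to 11 with 1 library left out, with 7 without TPBC-PEG replicate 1 and without PBS replicate 3.

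Replicate numbers gave no sign of pairing, since deviations of same-numbered libraries correlated at r = 0.0034, 0.065 and -0.015 over genes. With the replicate number as a block, DDIT4 was at 2.14, SESN2 at 1.67, SESN3 at 0.66 and TSC1 at 0.17, and the same 4 members were called. Depth limits DDIT4L, CASTOR1 and DEPTOR, whose summed counts per group were at most 32. For CASTOR1 the exons shared with ENSG00000248751 are a further limit.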
